A study of Mus musculus with 16 samples.

Results

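This account follows 8 genes of iron handling, Cp, Tfrc, Trf, Fth1, Ftl1, Slc40a1, Slc11a2 and Hmox1, among the 25791 gene symbols of a glomerular RNA-seq table. They were selected on their FPKM values in untreated and drug-treated mice (FPKM, fragments per kilobase of transcript and per 1e6 mapped fragments), so those group differences are given as a description without a test. All 8 were found and all 8 reached the level needed for testing, 1 FPKM or more in 7 or more libraries. The table covers 16 mouse libraries of genotype eNOS-/-//db/db. These mice lack endothelial nitric oxide synthase and are homozygous for db, a leptin receptor mutation that brings obesity and diabetes, and both groups share this genotype and a standard diet. The untreated group (n = 9) is labelled non-treated, and the RAAS-blocked group (n = 7) received lisinopril at 20 mg/day with losartan at 30 mg/day. Lisinopril inhibits angiotensin-converting enzyme and losartan blocks the angiotensin II type 1 receptor, so together they block the renin-angiotensin-aldosterone system (RAAS). The drugs were given in drinking water, starting at 10 to 12 weeks of age and ending at 26 weeks. Strain background and sex are not given in the labels.

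Glomeruli, the filtering tufts of the kidney, had been loaded with iron by perfusion and pulled out with a magnet. All 16 libraries were prepared in this way, so whether the iron itself moved any of these genes was not tested. The labels do not say sample by sample that each library is a separate mouse, and p-values measure the spread between libraries. Podocyte genes were abundant in every library, with Nphs1 (nephrin) between 181 and 470 FPKM. Other cells were present to different extents. The summed level of 12 proximal tubule markers ran from 50.9 to 1835 FPKM in untreated and from 48.8 to 934 FPKM in RAAS-blocked libraries. That of 8 markers of the thick ascending limb and distal tubule ran from 552 to 3541 and from 386 to 2054 FPKM. Library numbers ran from 17626 to 17634 in the untreated and from 17664 to 17670 in the RAAS-blocked group, so anything done in the order of those numbers cannot be told apart from treatment. The ribosomal RNA gene Rn18s had 2214 to 9925 FPKM in each of the 7 RAAS-blocked libraries, while every one of the 9 untreated libraries lists it at 0. It separates the groups completely, and whether it reflects treatment, library preparation or the authors' processing cannot be told apart. RAAS-blocked replicate 4 had 16919 symbols above 0, against 17993 to 18613 in the other libraries.

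1 library stood apart for macrophage genes before any comparison. In untreated replicate 3 the summed level of the 9 macrophage markers found in the table was 1760 FPKM, against 594 FPKM in the next highest library. 0 of the 9 markers were at 0 in every library. The untreated median was 153 FPKM, and the RAAS-blocked libraries ran from 105 to 594 FPKM with a median of 237 FPKM. Results that rest on untreated replicate 3 are given with and without it. In bulk RNA, fewer cells of a type and less RNA per cell cannot be told apart.

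Cells take up iron bound to transferrin (the product of Trf) through the transferrin receptor (Tfrc), and the transporter encoded by Slc11a2 moves it out of the endosome. Ferritin, a shell of heavy (Fth1) and light (Ftl1) chains, stores it. Ferroportin (Slc40a1) is the known exporter of iron from cells, and ceruloplasmin (Cp), a copper enzyme, oxidises the exported iron so that transferrin can bind it. Heme oxygenase 1 (Hmox1) frees iron from heme, and macrophages that clear red cells rely on it together with ferroportin. Much of this system is controlled on the mRNA by iron regulatory proteins, which bind a stem-loop called the iron-responsive element. Bound near the 5′ end it blocks translation of the ferritins, and bound in the 3′ untranslated region it protects Tfrc mRNA from decay.

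These elements are shown because the same loop sits at opposite ends of the ferritin and receptor messages. The search used GENCODE transcripts (release for GRCm38), 1 each for Fth1, Ftl1 and Tfrc. The pattern was C, any 5 bases, CAGTGN and 5 bases pairing with the first 5 (G with T allowed, transcript strand). It found 1 match in Fth1, 1 in Ftl1 and 4 in Tfrc. Matches in Cp, Trf, Slc40a1, Slc11a2 and Hmox1 were not examined, so no absence is implied for them. Over all protein-coding transcripts of each gene, the same pattern was found in 294 of 21877 protein-coding genes (1.34%). A match alone is therefore a description and not a proven site. Each line gives 30 bases, 5′ to 3′, with the loop in capitals.
Fth1, 5′ UTR, exon 1: ttcctgcttcaaCAGTGCttgaacggaacc
Ftl1, 5′ UTR, exon 1: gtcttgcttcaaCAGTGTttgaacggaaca
Tfrc element 1, 3′ UTR, exon 19: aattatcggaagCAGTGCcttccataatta
Tfrc element 2, 3′ UTR, exon 19: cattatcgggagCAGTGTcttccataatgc
Tfrc element 3, 3′ UTR, exon 19: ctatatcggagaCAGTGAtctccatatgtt
Tfrc element 4, 3′ UTR, exon 19: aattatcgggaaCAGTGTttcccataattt
On GRCm38 the Fth1 element lies at chr19:9982732-9982761 on the plus strand and the Ftl1 element at chr7:45459778-45459807 on the minus strand. The Tfrc elements lie on the plus strand at chr16:32631219-32631248, chr16:32631598-32631627, chr16:32631663-32631692 and chr16:32631710-32631739. The authors' own build is not given in the sources used here, and these positions describe the reference only. The RNA levels below do not read translation.

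Ceruloplasmin showed the widest separation between the groups of the 8 genes. Cp was between 17.8 and 74.1 FPKM in untreated libraries, with a median of 31.7 FPKM, and between 50.9 and 98.8 FPKM in RAAS-blocked libraries, with a median of 64.7 FPKM. All 7 treated libraries lay above the untreated median, and 7 of 9 untreated libraries lay below the lowest treated one. The groups overlapped through untreated replicates 0 (56.5 FPKM) and 3 (74.1 FPKM). Group means were 35.5 ± 18.6 FPKM (SD, n = 9) and 68.6 ± 17.0 FPKM (SD, n = 7), a 1.93-fold ratio, and the log2(FPKM + 1) difference was 1.04 ± 0.26 (SE), treated minus untreated. It was 1.19 ± 0.22 without untreated replicate 3, and ran from 0.93 to 1.19 over 26 alternative fits. Other measures moved with the groups as well. Rn18s did so without overlap. Mean FPKM was higher in RAAS-blocked libraries for 5 of 5 mesangial markers (summed level 108 to 373 FPKM untreated, 125 to 409 FPKM treated). The same held for 0 of 8 endothelial markers (1643 to 3128 and 1232 to 2595 FPKM). It held for 1 of 8 thick ascending limb and distal tubule, 1 of 12 proximal tubule, 0 of 5 erythroid and 0 of 5 hepatocyte markers. For podocyte markers it was 2 of 8 and for parietal epithelium markers 3 of 7. For macrophage markers it was 4 of 9 with untreated replicate 3 included, and the count without that library is not given. Their summed level had a median of 153 FPKM untreated and 237 FPKM treated, so the macrophage count of means does not show balanced groups. Of 5 hepatocyte markers, summed at 0.184 to 23.1 FPKM untreated and 0.617 to 4.57 FPKM treated, Serpina1a reached 20.6 FPKM in untreated replicate 1 and Alb 1.58 FPKM at most. The part of these in the Cp difference was not tested.

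The genes of iron uptake did not separate the groups. Trf was between 7.53 and 145 FPKM in untreated libraries (median 16.3 FPKM) and between 8.44 and 49.8 FPKM in RAAS-blocked libraries (median 21.3 FPKM). The highest value belonged to untreated replicate 3, and the next highest untreated library was at 23.6 FPKM. With that replicate the untreated mean, 29.2 ± 43.5 FPKM (SD, n = 9), was above the treated mean, 25.7 ± 14.9 FPKM (SD, n = 7), while the log2 difference was 0.26 ± 0.50 (SE), so the 2 scales differ in sign. Without it the untreated mean was 14.8 ± 5.43 FPKM (SD, n = 8) and the log2 difference 0.63 ± 0.33. Leaving out RAAS-blocked replicate 2 gave 0.08 instead, untreated replicate 6 gave 0.12, and the macrophage level as a covariate gave -0.12.

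Tfrc, the receptor, was between 4.55 and 22.8 FPKM in untreated (median 8.84 FPKM) and between 3.64 and 22.0 FPKM in RAAS-blocked libraries (median 7.75 FPKM). The groups covered nearly the same range, with a log2 difference of -0.24 ± 0.32 (SE), from -0.46 without RAAS-blocked replicate 3 to -0.07 without RAAS-blocked replicate 6. The highest library of each group, untreated replicate 4 and RAAS-blocked replicate 3, also had the highest thick ascending limb and distal tubule level of its group. Young red cells are another known source of Tfrc mRNA. The summed level of 5 erythroid markers was 43.1 to 366 FPKM in untreated and 15.9 to 299 FPKM in treated libraries, and its part in the Tfrc values was not tested. Slc11a2 was the steadiest of the 8 genes, at 11.1 to 14.6 FPKM untreated (median 11.8 FPKM) and 9.70 to 15.2 FPKM treated (median 12.2 FPKM). Its log2 difference was 0.02 ± 0.08 (SE).

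**Figure D1:**
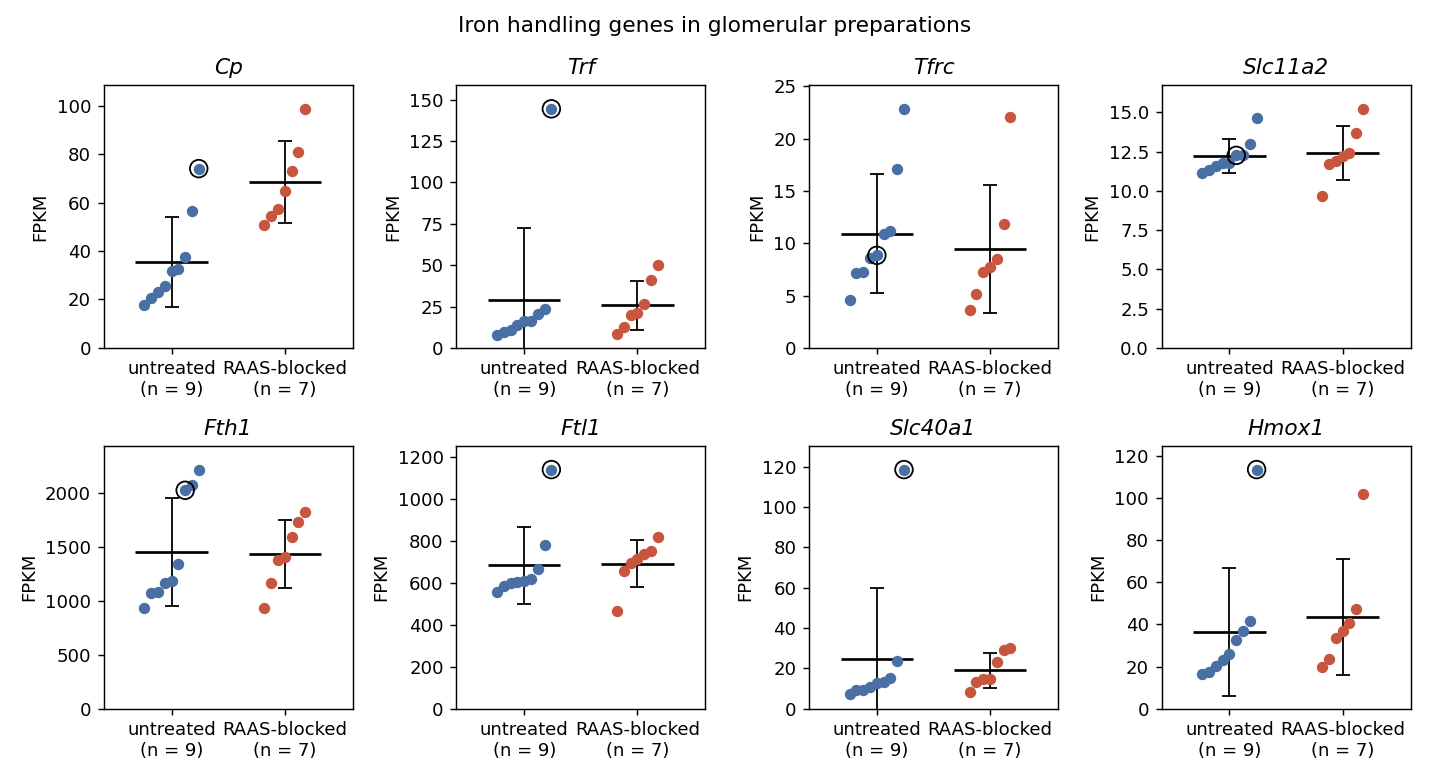
FPKM of the 8 genes in each library (vertical axes, linear, from 0), with untreated libraries in blue and RAAS-blocked libraries in red; horizontal lines are group means, bars are 1 SD and are drawn down to 0 at most, and the circle marks untreated replicate 3. Cp sits at 50.9 to 98.8 FPKM in all 7 treated libraries against an untreated median of 31.7 FPKM, while the circled library carries the highest Trf, Ftl1, Slc40a1 and Hmox1.

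The ferritin chains were the most abundant of the 8 messages per length and did not separate the groups. Fth1 was between 935 and 2218 FPKM in untreated libraries (median 1185 FPKM) and between 937 and 1826 FPKM in RAAS-blocked libraries (median 1405 FPKM). Its 3 highest values, in untreated replicates 4, 1 and 3, were above every treated library, and its log2 difference was 0.02 ± 0.20 (SE). Ftl1 was between 554 and 1140 FPKM untreated (median 610 FPKM) and between 463 and 820 FPKM treated (median 713 FPKM). Untreated replicate 3 was the highest Ftl1 library and RAAS-blocked replicate 4 the lowest. The log2 difference of Ftl1 was 0.03 ± 0.15 (SE), and 0.13 ± 0.11 without untreated replicate 3. Fth1 exceeded Ftl1 in all 16 libraries. The Fth1 to Ftl1 ratio of FPKM was 2.13 ± 0.524 (SD, n = 9) in untreated and 2.08 ± 0.338 (SD, n = 7) in treated libraries, with the highest values in untreated replicates 1 (3.11) and 4 (2.85), the libraries with the highest proximal tubule levels. Both ferritin genes have many near-identical processed copies in the mouse genome. How the authors' counting shared reads among such copies is not given, so their levels are uncertain.

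The iron exporter and the heme-degrading enzyme shared the high value of untreated replicate 3. Slc40a1 was between 7.41 and 119 FPKM in untreated (median 12.7 FPKM) and between 8.11 and 30.2 FPKM in RAAS-blocked libraries (median 14.9 FPKM). The next highest untreated library was at 23.5 FPKM. Its log2 difference was 0.15 ± 0.46 (SE) over all libraries and 0.51 ± 0.27 without untreated replicate 3, while its means, 24.4 ± 35.6 FPKM (SD, n = 9) and 19.0 ± 8.53 FPKM (SD, n = 7), had the opposite order. It was 0.02 without RAAS-blocked replicate 2, 0.03 without untreated replicate 6 and -0.21 with the macrophage covariate. Hmox1 was between 16.3 and 114 FPKM untreated (median 25.9 FPKM) and between 19.7 and 102 FPKM treated (median 37.1 FPKM). Here 2 libraries stood out, untreated replicate 3 and RAAS-blocked replicate 0, and the groups overlapped over almost their whole range. The Hmox1 log2 difference was 0.33 ± 0.38 (SE), and 0.57 ± 0.30 without untreated replicate 3. Without RAAS-blocked replicate 0 it was 0.10, and with the macrophage covariate 0.10.

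By median over all 16 libraries the order of levels per length was Fth1 (1358 FPKM), Ftl1 (662 FPKM), Cp (52.7 FPKM), Hmox1 (33.2 FPKM), Trf (18.2 FPKM), Slc40a1 (13.7 FPKM), Slc11a2 (12.1 FPKM) and Tfrc (8.51 FPKM). Only the ferritins lay clear of all the others in every library. The ranges over libraries of all neighbours from Cp downwards overlapped. The spread between libraries differed widely among the genes. The highest library exceeded the lowest 19.2-fold for Trf and 16-fold for Slc40a1, but 1.57-fold for Slc11a2 and 2.37-fold for Fth1.

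In limma's test across all 13286 genes, 2 genes passed a Benjamini-Hochberg adjusted p of 0.05 between the groups (0.0151% of genes, 0.00753% in each direction), Mgat1 lower (44.6 to 52.5 FPKM treated, 55.1 to 64.2 FPKM untreated) and Rn18s, described above, higher. The 8 iron handling genes were chosen with this contrast known, so no test result is read for them. The log2 difference was above 0 for 7 of the 8 and below 0 for 1, while 44.7% of all genes tested lay above 0. The median of the 8 was 0.09, against -0.02 for all genes tested. All 26 alternative fits kept the difference of Cp and of Hmox1 above 0. For Fth1, Ftl1, Slc11a2, Slc40a1, Tfrc and Trf the alternatives lay on both sides of 0.

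**Figure D2:**
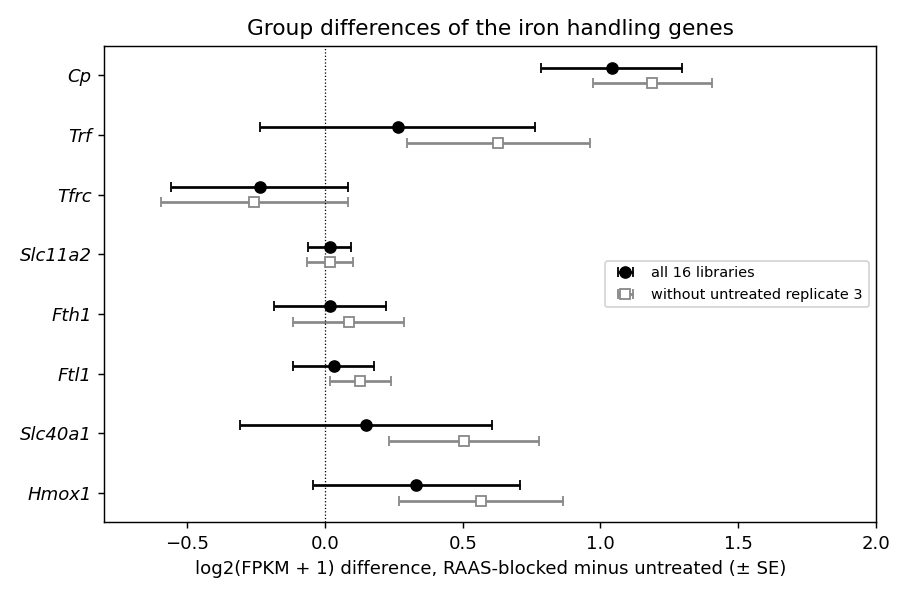
Difference of log2(FPKM + 1), RAAS-blocked minus untreated, for each gene (horizontal axis), with SE bars, over all 16 libraries (filled circles) and without untreated replicate 3 (open squares). Cp lies at 1.04 and the other 7 genes between -0.24 and 0.33, and leaving out that library moves Trf to 0.63 and Slc40a1 to 0.51.

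The levels of these genes were next compared with markers of the cells that the preparations held, a measure that the rule for choosing the genes does not name, although genes and marker lists were drawn up with earlier results of these data known. The level of a cell type is the mean log2(FPKM + 1) of its markers, and each slope gives the log2 units by which a gene moves per log2 unit of that level, fitted by limma over all genes with group as a second term. With 8 genes and 4 marker levels, 32 slopes were examined, each p adjusted over all 13286 genes for its level. The slopes describe libraries, and which cells carried each message was not tested.

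Ferroportin, transferrin, light chain ferritin and heme oxygenase 1 rose with the macrophage level. The slope was 0.89 ± 0.09 (SE) for Slc40a1 (limma adjusted p = 1.1e-05) and 0.94 ± 0.11 for Trf (limma adjusted p = 6.1e-05). It was 0.24 ± 0.05 for Ftl1 (limma adjusted p = 0.0097) and 0.56 ± 0.14 for Hmox1 (limma adjusted p = 0.032). Thus 4 of 8 genes passed, all positive, against 3.83% of all genes (3.65% positive, 0.181% negative). Without untreated replicate 3 the slopes of Slc40a1 (0.69 ± 0.13, limma adjusted p = 0.014) and Trf (0.79 ± 0.18, limma adjusted p = 0.041) still passed, and those of Ftl1 (0.18 ± 0.08, limma adjusted p = 0.405) and Hmox1 (0.40 ± 0.22, limma adjusted p = 0.528) did not. The Hmox1 call was also lost without untreated replicate 1, untreated replicate 6 or RAAS-blocked replicate 4, with a limma adjusted p of 0.0605 to 0.0807, and with array weights (0.48, limma adjusted p = 0.123). Without untreated replicate 3 the count over all genes fell from 509 to 181. Slc40a1 and Trf passed in all 16 fits that left out 1 library. Among markers of the macrophage type that recycles red cells in the spleen, Spic, its transcription factor, was at 24.7 FPKM and Cd5l at 144 FPKM in untreated replicate 3. The highest values elsewhere were 5.06 FPKM for Spic and 17.3 FPKM for Cd5l.

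**Figure D3:**
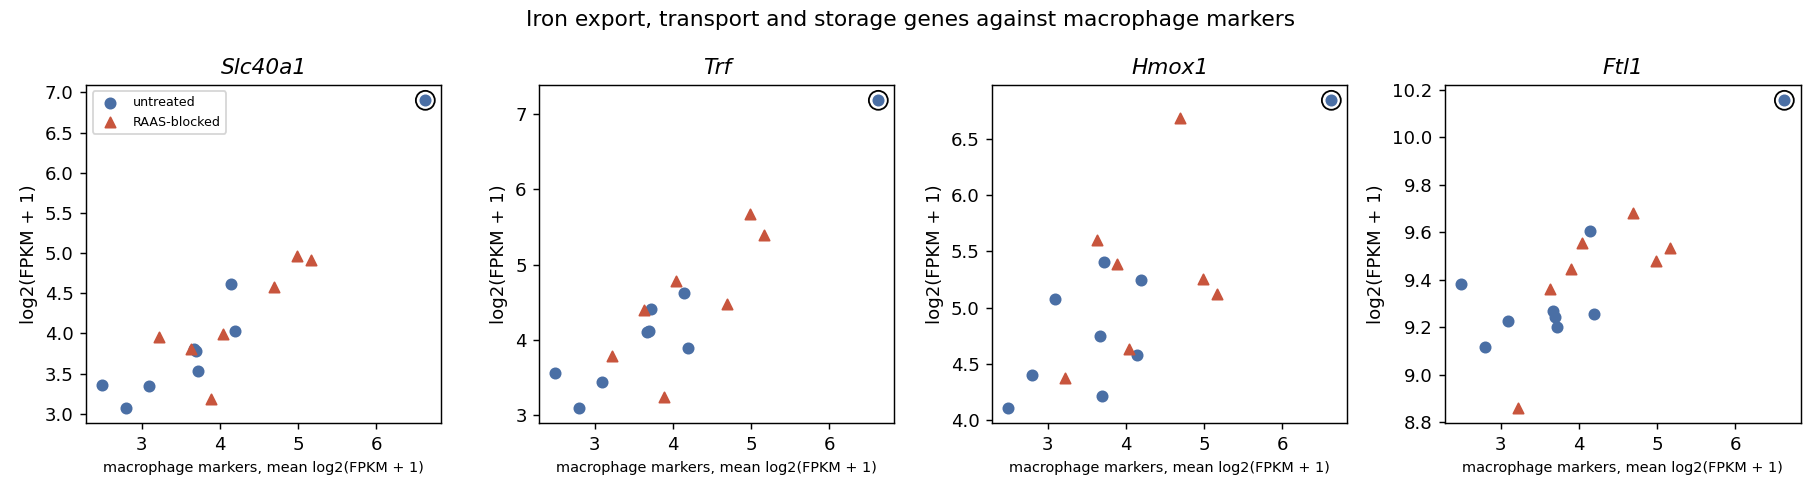
Log2(FPKM + 1) of Slc40a1, Trf, Hmox1 and Ftl1 (vertical axes) against the mean log2(FPKM + 1) of 9 macrophage markers (horizontal axes), 1 point per library, circles untreated, triangles RAAS-blocked, the ringed circle being untreated replicate 3. The slopes of Slc40a1, Trf, Hmox1 and Ftl1 are 0.89, 0.94, 0.56 and 0.24. Without the ringed library they are 0.69, 0.79, 0.40 and 0.18.

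Transferrin receptor, heavy chain ferritin and ceruloplasmin moved with the level of 8 thick ascending limb and distal tubule markers instead. Tfrc rose with a slope of 0.70 ± 0.09 (SE; limma adjusted p = 8.6e-05), and it passed in all 16 fits that left out 1 library. Fth1 rose with a slope of 0.32 ± 0.10 (limma adjusted p = 0.037). Cp fell, with a slope of -0.39 ± 0.13 (limma adjusted p = 0.046). These 3 of 8 genes, 2 positive and 1 negative, stand against 16.1% of all genes (11.8% positive, 4.31% negative). The Fth1 and Cp calls were close to the threshold. That of Fth1 was lost without any 1 of untreated replicates 0, 1, 4 and 8 and RAAS-blocked replicates 1 to 5 (limma adjusted p of 0.0509 to 0.143). That of Cp was lost without any 1 of untreated replicates 0, 1, 2, 4, 5 and 6 and RAAS-blocked replicates 2, 3, 5 and 6 (0.0503 to 0.127), with quantile normalization (-0.36, limma adjusted p = 0.058) and with no filter (0.068). With no filter Fth1 also missed the threshold (0.054). Slc11a2 passed only without RAAS-blocked replicate 6 (0.12 ± 0.03, limma adjusted p = 0.023) and with array weights (0.10 ± 0.03, limma adjusted p = 0.026). Without untreated replicate 4 the count over all genes fell from 2143 to 1252.

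**Figure D4:**
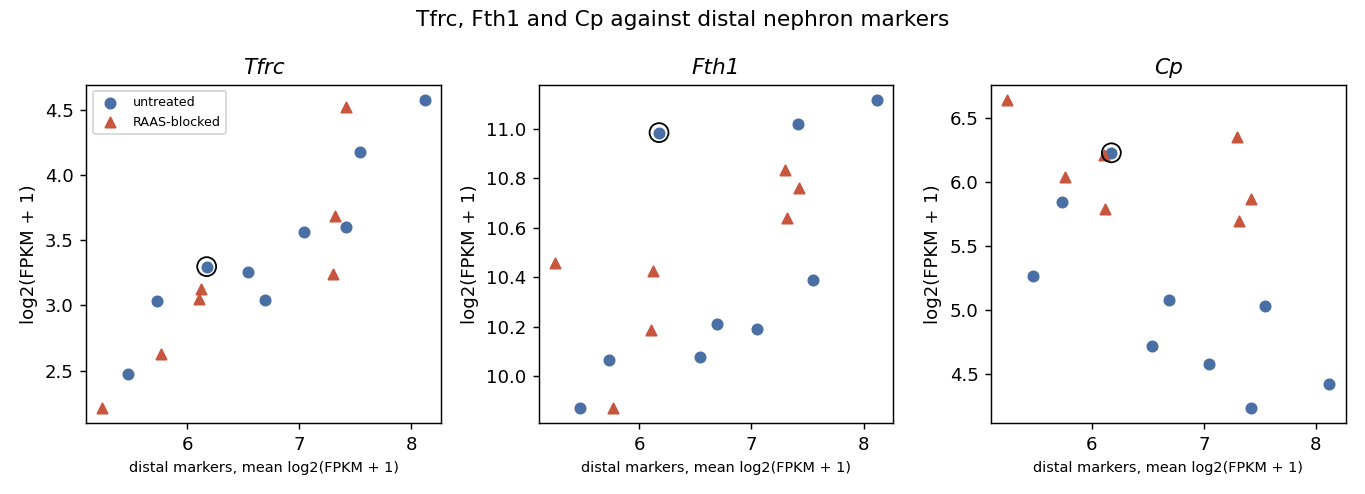
Log2(FPKM + 1) of Tfrc, Fth1 and Cp (vertical axes) against the mean log2(FPKM + 1) of 8 thick ascending limb and distal tubule markers (horizontal axes), 1 point per library, circles untreated, triangles RAAS-blocked, the ringed circle being untreated replicate 3. Tfrc and Fth1 climb (slopes 0.70 and 0.32), and Cp descends (slope -0.39).

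No gene passed against the proximal tubule level (0 of 8, against 9.39% of all genes, 7.56% positive and 1.83% negative) or the podocyte level (0 of 8, against 7.47%, 5.29% positive and 2.18% negative). At an unadjusted limma p under 0.05 these counts were 3 and 0. The share of all genes at that level is not given here, so nothing is read from them. Tfrc (0.26 ± 0.08, limma adjusted p = 0.059), Cp (-0.20 ± 0.07, limma adjusted p = 0.079) and Fth1 (0.15 ± 0.06, limma adjusted p = 0.10) had proximal tubule slopes of the same signs as their distal ones. The proximal and distal levels themselves had a Pearson r of 0.79 over the 16 libraries after group means were removed, so the 2 are not separate measures. Leaving out 1 library brought some of these past the threshold. Against the proximal tubule level, Tfrc passed without RAAS-blocked replicate 3, untreated replicate 5 or untreated replicate 6 (limma adjusted p of 0.016 to 0.0498), Cp without untreated replicate 6 (limma adjusted p = 0.035) and Fth1 without untreated replicate 3 (limma adjusted p = 0.040). Against the podocyte level Trf passed without untreated replicate 3 (-1.09 ± 0.32, limma adjusted p = 0.049). With the proximal tubule level as a covariate the group difference of Cp was 1.02, and with the macrophage level 0.93. No group difference is given with the distal level as a covariate. The macrophage covariate gave -0.12 for Trf, -0.21 for Slc40a1, -0.06 for Ftl1, -0.04 for Fth1, -0.29 for Tfrc, 0.01 for Slc11a2 and 0.10 for Hmox1.

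**Figure D5:**
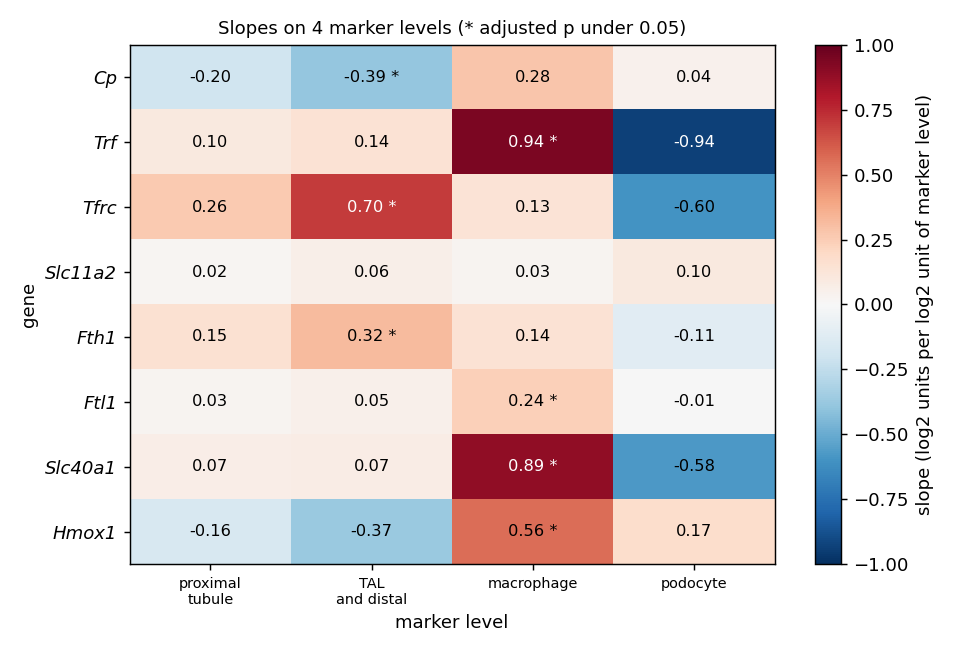
Slopes of the 8 genes (rows) on 4 marker levels (columns), in log2 units of gene level per log2 unit of marker level, with the value in each cell, red for positive and blue for negative, and a star where the limma adjusted p is under 0.05. Stars fall on Trf, Ftl1, Slc40a1 and Hmox1 in the macrophage column and on Cp, Tfrc and Fth1 in the distal column; Slc11a2 has slopes between 0.02 and 0.10.

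The genes were then compared with each other over the 16 libraries after group means were removed. Of 28 pairs 24 had a positive Pearson r, and 6 passed for both r and Spearman's rho (permutation tests, two-sided, adjusted over 28 pairs). The same counts for other gene pairs were not made, and libraries share cell makeup. The counts are therefore not read as particular to iron handling. Trf and Slc40a1, transferrin and the exporter, were the closest pair, with r = 0.95 (permutation p = 1e-05, the smallest that the permutations can give; adjusted p = 0.00028) and rho = 0.84 (permutation p = 8e-05; adjusted p = 0.0022). Without the 2 libraries farthest from the median of Trf r was 0.83, and it was 0.97 in untreated and 0.89 in RAAS-blocked libraries. The ferritin chains Fth1 and Ftl1 had r = 0.71 (permutation p = 0.00082; adjusted p = 0.011) and rho = 0.77 (permutation p = 0.00091; adjusted p = 0.0085), and r was 0.79 without the 2 farthest libraries. Within groups it was 0.72 and 0.70.

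Other pairs rested more on single libraries. Ftl1 with Slc40a1 had r = 0.78 (permutation p = 0.0015; adjusted p = 0.011), rho = 0.64 (permutation p = 0.0098; adjusted p = 0.046) and r = 0.65 without the 2 farthest libraries. Trf with Ftl1 had r = 0.77 (permutation p = 0.0016; adjusted p = 0.011), rho = 0.66 (permutation p = 0.0062; adjusted p = 0.040) and r = 0.50 without the 2 farthest. Without untreated replicate 3 these were 0.47 in both cases (permutation test, adjusted p = 0.202 each). Fth1 with Slc11a2 had r = 0.68 (permutation p = 0.0029; adjusted p = 0.016), rho = 0.78 (permutation p = 0.00064; adjusted p = 0.0085) and r = 0.57 without the 2 farthest. It no longer passed without RAAS-blocked replicate 4 (r = 0.60) or untreated replicate 4 (r = 0.59), or with quantile normalization (r = 0.44). Iron regulatory proteins are known to control Tfrc and Fth1 in opposite senses. For Fth1 they act on translation, so a correlation of RNA levels does not read that control. Both genes also rose with the distal level (slopes 0.70 and 0.32). The correlation of Tfrc with Fth1 had a positive r of 0.61 (permutation p = 0.012; adjusted p = 0.047) and rho of 0.66 (permutation p = 0.0072; adjusted p = 0.040), with r of 0.47 without the 2 farthest. It stayed positive in all 16 sets that left out 1 library and passed in 5 of them, those without untreated replicate 1, 2, 3 or 6 or RAAS-blocked replicate 6.

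Genes whose levels followed each member most closely were found among 10640 genes, by Pearson r over the 16 libraries after group means were removed and as a description only. For Cp they included Tpst1 (r = 0.92), a tyrosylprotein sulfotransferase gene, Casp12 (0.87), Lix1l (0.87) and Cdc42ep3 (0.87). These 4 values were between 0.80 and 0.91 without untreated replicate 3. The mean FPKM of Casp12 was 6.31 ± 2.73 (SD, n = 9) without and 10.7 ± 3.37 (SD, n = 7) with the drugs, and that of Tpst1 was 10.5 ± 3.60 and 12.8 ± 3.01. For Fth1 the closest was Ncoa4 (r = 0.92), which encodes the receptor that delivers ferritin to lysosomes, at 30.2 to 45.4 FPKM over all libraries, with r = 0.92 also without untreated replicate 3. Next came Acaa1a (0.92), a peroxisomal thiolase gene. For Tfrc they were Sfrp1 (0.95), a secreted Wnt antagonist gene, and Impa2 (0.92).

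Trf was followed most closely by Fcna (r = 0.97) and Cd5l (0.97), both known from macrophages, and Slc40a1 by Cadm1 (0.97) and Igf1 (0.97). Without untreated replicate 3 these were 0.93, 0.91, 0.92 and 0.89. For Ftl1 they were Dnase2a (0.95), a lysosomal nuclease gene, and Tmem51 (0.94), and for Hmox1 they included the chemokine gene Ccl4 (0.91). Those for Slc11a2 included Nme1 (0.91). Libraries share cell makeup, so these values also carry it.

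Beyond the 8 genes, 84 other genes of iron, copper and heme handling were listed by role, and 72 could be tested. Between the groups 0 of 72 passed in limma over all genes, and 4 had an unadjusted limma p under 0.05, against 814 of all 13286 genes. Mean log2(FPKM + 1) was higher after RAAS blockade for 27 and lower for 45, while 44.7% of all genes tested were higher. The median log2 difference of the 72 genes was -0.03, against -0.02 for all genes tested. Counts of higher and lower means by role below use this log2 scale and have the same 44.7% beside them. Uptake genes had 7 higher and 7 lower means of 14, and none had an unadjusted p under 0.05. Ferroxidase and copper genes had 3 and 3 of 6. Among these, Atp7a, the copper pump that loads secreted copper enzymes, was at 7.46 ± 0.782 FPKM (SD, n = 9) and 8.38 ± 0.832 FPKM (SD, n = 7), with a log2 difference of 0.15 ± 0.07 (limma adjusted p = 0.804). For the copper chaperone Atox1 the means were 175 ± 29.9 and 151 ± 17.3 FPKM, a log2 difference of -0.20 ± 0.10 (limma adjusted p = 0.820). The copper chaperone Ccs was at 41.0 ± 10.8 and 36.5 ± 6.19 FPKM.

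Regulators of iron showed small differences that did not pass. Fbxl5, the iron-sensing subunit that marks iron regulatory proteins for decay, had the lowest p of the list, at 31.2 ± 1.14 FPKM (SD, n = 9) and 36.4 ± 5.05 FPKM (SD, n = 7), with a log2 difference of 0.21 ± 0.07 (limma adjusted p = 0.655). Storage and regulatory genes had 4 higher and 5 lower means of 9, with Pcbp2, an iron chaperone gene, at 67.5 ± 6.50 and 63.7 ± 4.78 FPKM and Ftl2 at 3.10 ± 1.37 and 2.63 ± 1.25 FPKM. In the hepcidin axis, 3 of 6 were higher and 3 lower. Bmp6, a ligand that drives hepcidin in the liver, was at 81.2 ± 29.5 and 68.0 ± 16.7 FPKM, Bmp2 at 14.1 ± 6.30 and 17.2 ± 5.55 FPKM and Neo1 at 13.6 ± 1.96 and 12.2 ± 0.493 FPKM.

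Heme genes had 4 higher and 15 lower means of 19. Fech, ferrochelatase, which puts iron into heme, was at 32.1 ± 3.49 FPKM (SD, n = 9) and 27.4 ± 2.37 FPKM (SD, n = 7), with a log2 difference of -0.22 ± 0.07 (limma adjusted p = 0.655). Hmox2, the constitutive heme oxygenase gene, had means of 40.9 ± 4.90 and 34.6 ± 5.46 FPKM, a log2 difference of -0.24 ± 0.10 (limma adjusted p = 0.755). Ppox was at 12.5 ± 1.99 and 14.1 ± 1.36 FPKM. Mitochondrial iron and iron-sulfur genes had 6 higher and 12 lower means of 18. Examples were Glrx5 at 9.25 ± 1.26 and 10.7 ± 2.11 FPKM, Fdx1 at 28.7 ± 5.62 and 24.9 ± 5.61 FPKM and Isca1 at 36.4 ± 5.22 and 33.2 ± 3.94 FPKM. In the uptake group Lrp1, the receptor for heme bound to hemopexin, was at 19.4 ± 12.0 and 24.6 ± 10.3 FPKM, Steap4, a metalloreductase gene, at 1.24 ± 0.713 and 3.07 ± 4.12 FPKM, and Mcoln1 at 22.3 ± 1.49 and 21.2 ± 2.23 FPKM. The medians of Steap4 had the opposite order, 1.29 FPKM untreated and 1.09 FPKM treated, and its log2 difference of 0.46 was 0.11 without RAAS-blocked replicate 6. None of the 18 genes named from this list passed over all genes.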

How the data were processed

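Mouse glomerular RNA was measured by mRNA sequencing in 16 libraries (TruSeq kit, per the labels' protocols), and the authors deposited 1 table of FPKM values with 1 column per library. Per the submitters' processing notes, the tools included Cuffdiff 2.2.1 and Cufflinks, TopHat2 2.0.8, and FastQC beside CASAVA 1.8.2; which tool did what is unstated. For build, annotation and strand use the entry is: not given in the sources used here. The table has no counts, so absolute depth is unknown; steps among very low values put relative depth at 1 to 1.73 times that of untreated replicate 0, with 61.4% to 73.9% of ratios on a step. Mir27a, listed at 672307 FPKM in untreated replicate 7, 743781 in RAAS-blocked replicate 5 and 0 elsewhere, did not pass the filter.

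The test was limma 3.58.1 in R 4.3.3 (mean trend, robust, Benjamini-Hochberg threshold 0.05) on log2(FPKM + 1) of the 13286 genes that reached 1 FPKM in 7 or more libraries. Fold changes on this scale understate changes of low genes. The model had group as its term, plus a marker level for slopes. Permutation tests of correlations used 100000 permutations. Functions were tested on simulated data. The 8 genes and all lists were chosen with earlier results of these data known. Of the iron list, up to 3 genes per role group with the lowest p and a mean of at least 1 FPKM are named, and for likeness 5 genes for Cp and 2 for each other gene averaging 2 FPKM or more, without predicted symbols and small RNAs; some genes that this rule names are not reported here. Of 84 listed iron genes 81 were in the table; the others were not analysed here. The promoter table held 4 of the 8 genes and was not used further. Alternatives covered the pseudocount, the filter, scaling, array weights, a replicate block, marker covariates and leaving out each library; the macrophage covariate and the pairwise correlations were added after seeing the data.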

Additional observations from a re-analysis of the deposited data

Results flagged for a closer look

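A library was marked when its gap to the nearest other exceeded the critical share of its group's range. For independent, normally spread values this marks about 1 in 20 groups. FPKM values are skewed and the genes share libraries, so that rate does not apply directly here and no excess is read. Of 52 groups of values (26 genes, 2 groups each) 11 had a marked library. Untreated replicate 3 accounted for 6 of them, as the highest untreated library for Trf (145 FPKM), Ftl1 (1140 FPKM), Slc40a1 (119 FPKM), Hmox1 (114 FPKM), Atp7a (9.28 FPKM) and Ftl2 (6.12 FPKM). It was also the library with the highest macrophage level, and the part of those cells in these values was not tested. RAAS-blocked replicate 0 was the highest treated library for Hmox1 (102 FPKM). RAAS-blocked replicate 6 was the highest treated library for Steap4 (11.7 FPKM) and the lowest for Bmp6 (34.7 FPKM). It also had the lowest proximal tubule, distal tubule and endothelial levels of all libraries and the highest podocyte level of the treated group. The part of these levels in the 2 values was not tested. Untreated replicate 0 was the highest untreated library for Steap4 (2.82 FPKM), and RAAS-blocked replicate 4 the highest treated library for Atp7a (10.2 FPKM).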

How the results depend on the processing

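Over all genes, the count past the threshold between groups was 2. It was 1 with upper-quartile scaling, quantile normalization, the replicate block, the proximal tubule covariate or the macrophage covariate. With array weights it was 11, and without each library 0 to 4. For the macrophage level the counts were 181 to 589 genes and 2 to 4 of the 8 without each library, and 25 and 0 with the replicate block. For the distal level they were 1252 to 2723 genes and 1 to 3 of the 8 without each library, 4455 genes with array weights, 589 genes and 1 of the 8 with the replicate block, and 1 of the 8 with no filter. For the proximal tubule level they were 636 to 1467 genes and 0 to 2 of the 8 without each library, 1894 genes with array weights, 336 with the replicate block, and 1 of the 8 with a pseudocount of 0.1 or quantile normalization. For the podocyte level they were 341 to 1265 genes and 0 to 1 of the 8 without each library, 627 with quantile normalization, 1662 with array weights and 0 with the replicate block. Ftl2 turned from a log2 difference of -0.23 to 0.13 with array weights and to 0.031 without RAAS-blocked replicate 4, and ran from -0.336 to 0.031 over the fits without 1 library. The causes of these shifts were not tested. The block uses 14 libraries and fits 6 more terms, and the part of either in its counts was not tested. Replicate numbers 0 to 6 occur in both groups, but only 4 of 7 same-numbered pairs had deviations correlated above 0.1 (-0.28 to 0.43) and 2 of 7 matched best with their own number, so the numbers were not taken as pairs. With the block the Tfrc slope on the distal level still passed (0.82, limma adjusted p = 0.0016), and those of Slc40a1 (0.85, 0.126) and Trf (0.88, 0.140) on the macrophage level did not. Depth cannot be given per value, as the table has no counts.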

Other observations

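The other 72 tested iron genes divided among the marker levels as well; the genes named here were chosen after their values were seen. With the proximal tubule level 12 rose and 1 fell (18.1% of 72, against 9.39% of all genes). Lrp2 (slope 0.66 ± 0.04 SE, limma adjusted p = 4.2e-09) and Cubn (0.44 ± 0.03, limma adjusted p = 1.3e-07) led them, the endocytic receptors that reclaim filtered proteins such as transferrin. With the distal level 22 rose and 0 fell (30.6% against 16.1%), among them Cisd1 (0.52 ± 0.06, limma adjusted p = 2.3e-05), which encodes a mitochondrial iron-sulfur protein. Aco1, which encodes iron regulatory protein 1, rose with both the proximal (0.21 ± 0.03, limma adjusted p = 3.7e-05) and the distal level (0.37 ± 0.06, limma adjusted p = 0.0010).

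With the podocyte level 4 rose and 3 fell (9.72% against 7.47%). Steap3, an endosomal ferrireductase gene, had a slope of 1.33 ± 0.17 (limma adjusted p = 0.00016), and Bmp6 one of -0.90 ± 0.19 (limma adjusted p = 0.0073). With the macrophage level 3 rose and 0 fell (4.17% against 3.83%). They were Cd163, the receptor for hemoglobin bound to haptoglobin (0.84 ± 0.19, limma adjusted p = 0.014), Atox1 (0.17 ± 0.04, limma adjusted p = 0.012) and Lrp1 (0.48 ± 0.13, limma adjusted p = 0.048). These 3 slopes include untreated replicate 3, the library with the highest macrophage level. Their values without it are not given, so how far they rest on that library is not known. Shares of a list beside the share of all genes are given as counts, without a test of the list.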
